A study of Epimedium pubescens with 12 samples.

Results

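The small RNA table of Epimedium pubescens leaves held 220 miRNAs, of which 22 carried the name of a known plant miRNA (aqc) and 198 were predictions. The 3 rows described here are the predicted miRNAs novel_79, novel_286 and novel_124. They were taken by name, because the study paired each of them with a target gene in a comparison of phosphorus-deficient with phosphorus-supplied plants. The study had picked them as changed in these same libraries, so their phosphorus comparisons are no independent evidence of a change. Plants were grown in sand and watered with nutrient solution holding no phosphate (-P, 0 mmol/L) or 1 mmol/L phosphate (+P), and leaves were sampled after 30 and 90 days. This gave 4 groups, 30d -P, 30d +P, 90d -P and 90d +P, with 3 libraries each, named A, B and C. The labels give neither the age of the plants nor a genotype, and do not say whether a library came from 1 plant or several, so the p-values measure the spread between these libraries. The study describes the plants as 1-year-old seedlings when collected, with several seedlings in each of 3 replicates per treatment. How many of them went into a library is not stated.

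A plant miRNA is a short RNA that guides an Argonaute protein to messenger RNAs carrying a nearly complementary stretch, which are then cut or translated less. When phosphate runs short, the best-known plant miRNA response is a rise of miR399, which targets the mRNA of PHO2, an enzyme that limits phosphate uptake and transport. Many other miRNAs of a species are found only by prediction from reads that fold back on the genome, and their functions are mostly known through predicted targets. The study paired novel_79 with Ebr06G023990, annotated as a glyoxylate/hydroxypyruvate/pyruvate reductase, an enzyme type of photorespiratory carbon metabolism. Its partner for novel_286 was Ebr05G042010, an MDIS1-interacting receptor-like kinase 2, from a class of membrane proteins that pass signals into the cell. For novel_124 it was Ebr02G058440, a pentatricopeptide repeat protein, from a large plant family that binds and processes RNA in chloroplasts and mitochondria. In each pairing the study reported the miRNA as lower in deficient leaves and its target gene as higher. It also reported quantitative PCR on a selection of miRNAs and target genes. By its account, miRNA and target changed in opposite directions there, matching its sequencing. Neither the quantitative PCR values nor the mRNA levels of these target genes were analysed here.

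The forward primers that the study designed to amplify novel_286 and novel_124 by quantitative PCR are shown because they are the only sequences at hand that stand for the members. Where the mature miRNA starts and ends within them is not given, so no seed is marked.
novel_286: gcttgggactcaagctttgtttg
novel_124: cgttctcgtccttcaacctcatc
Both were 23 bases long, with 47.8% and 52.2% G or C, and the longest stretch they shared was 4 bases. By this measure the 2 primers have little sequence in common. No sequence of novel_79 was used here.

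All 3 members were scarce. The 12 libraries held 380316 (30d +P B) to 1466897 (30d +P C) miRNA counts, a 3.86-fold range, and 11526632 in all. Levels are given in TPM, which in this table is the count as a share of the library's miRNA counts, brought to the same total in every library. In a single library, 3 counts, taken as the upper 95% limit that a count of 0 allows, came to between 2.05 and 7.89 TPM. Over all libraries novel_79 had 315 counts, novel_286 had 173 and novel_124 had 50. Ranked by mean level among the 220 miRNAs they stood at 99, 111 and 128. A count was present in 12, 11 and 4 of the 12 libraries, respectively. Intervals on single values below are exact 95% Poisson intervals and cover counting error only, as the reads carried no molecular identifiers. They allow for error on both sides, so for a count of 0 they reach above the limit of 3 counts. For novel_286 in 30d +P B the interval reached 9.70 TPM and the limit was 7.89 TPM.

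novel_79 was low in all 30-day leaves and highest in the phosphate-supplied leaves at 90 days. In 30d -P its level was 5.63, 6.53 and 8.55 TPM in libraries A, B and C, from 3, 5 and 6 counts. In 30d +P it was 6.96, 18.4 and 20.5 TPM, from 4, 7 and 30 counts. Library A of this group lay inside the range of 30d -P, so the 30-day groups overlapped. Between libraries of the same letter the level was lower in -P in 3 of 3 pairs, which was so for 24.8% of the tested miRNAs. In 90d -P the level was 16.6, 22.0 and 27.4 TPM, from 24, 29 and 28 counts. In 90d +P it was 39.1, 62.8 and 61.7 TPM, from 47, 76 and 56 counts. Every library of 90d +P thus stood above every other library of the study. From lowest to highest the group means were 30d -P (6.90 ± 1.5 TPM, SD, n = 3), 30d +P (15.3 ± 7.27), 90d -P (22.0 ± 5.38) and 90d +P (54.5 ± 13.4). Along this order the first and second groups overlapped, as did the second and the third, whereas the third and the last were separate.

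**Figure D1:**
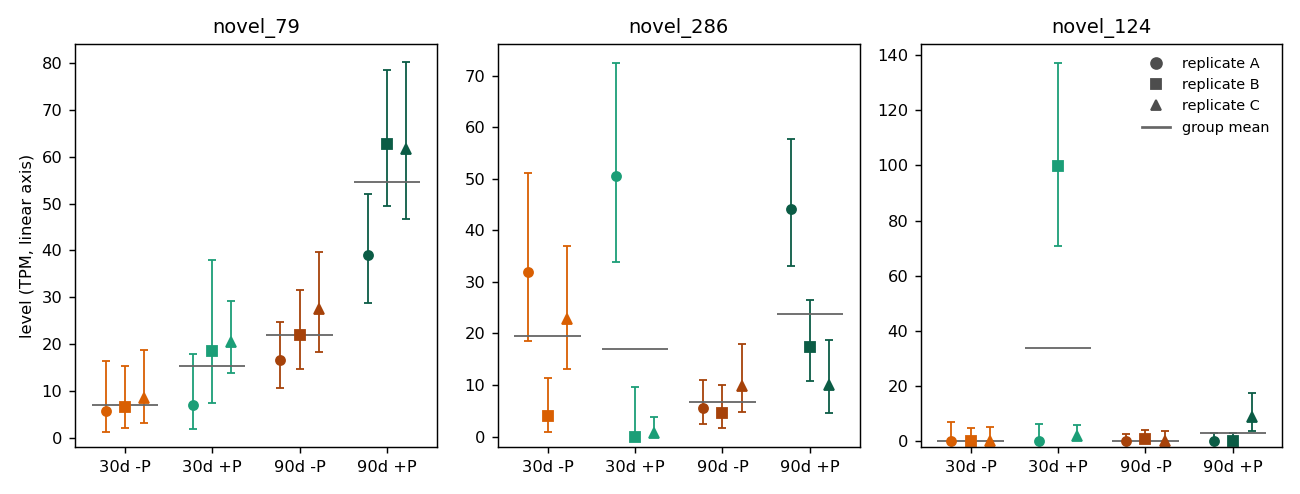
Levels of the 3 members in TPM (linear axis) in every library, by group. Points are libraries, marked by replicate letter, with 95% Poisson intervals for counting error, and grey lines are group means. The novel_79 values of 90d +P, from 39.1 to 62.8 TPM, lie above all others, whereas the means of novel_286 in 30d +P and of novel_124 rest on single libraries.

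The levels of novel_286 spread widely within every group but 90d -P. In 30d -P its level was 31.9, 3.92 and 22.8 TPM in A, B and C, from 17, 3 and 16 counts. In 30d +P the values were 50.5, 0 and 0.682 TPM, from 29, 0 and 1 counts, so library A held 96.7% of the counts of the group. The count of 0 in library B allows up to 7.89 TPM. In 90d -P the level was 5.54, 4.56 and 9.78 TPM, from 8, 6 and 10 counts, the narrowest spread of the 4 groups. In 90d +P it was 44.1, 17.4 and 9.92 TPM, from 53, 21 and 9 counts, and library A held 63.9% of them. In order of the mean the groups were 90d -P (6.62 ± 2.77 TPM, SD, n = 3), 30d +P (17.1 ± 29.0), 30d -P (19.5 ± 14.3) and 90d +P (23.8 ± 18.0). Each group overlapped its neighbours in this order.

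novel_124 was seen in 4 libraries only. In 30d +P its level was 0, 99.9 and 2.05 TPM in A, B and C, from 0, 38 and 3 counts, so library B held 92.7% of the counts of the group. Its 99.9 TPM (70.7 to 137) was the highest value of any member in any library, and came from the library with the lowest total. Outside this group there were 8 counts in 90d +P C (8.82 TPM) and 1 count in 90d -P B (0.759 TPM, under the limit that a count of 0 allows). None of the 3 libraries of 30d -P held a count, which allows up to 5.63, 3.92 and 4.27 TPM in A, B and C. Libraries A of 30d +P (limit 5.22 TPM) and A and B of 90d +P (limits 2.50 and 2.48 TPM) also had none. A level of 0 was therefore shared by libraries with and without phosphate.

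A miRNA that sits almost wholly in 1 library of its group was uncommon in the table. Of the 123 miRNAs with at least 30 counts in 30d +P, 8 (6.50%) had over 90% of them in 1 library, novel_286 and novel_124 among these. The largest share fell to library A for 4 of the 8, to B for 1 and to C for 3. The 30d +P libraries supplied unequal depth, and the largest, C, held 60.6% of the counts of the group. In the other groups the share of such miRNAs was 3.70% (30d -P), 1.68% (90d -P) and 6.36% (90d +P).

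The question of the study at each time point was whether these miRNAs differed between deficient and supplied leaves. Counts were tested with edgeR's quasi-likelihood test in 1 model of the 4 groups, with Benjamini-Hochberg adjustment over 137 miRNAs that passed a filter on low counts. novel_79 and novel_286 passed the filter, and novel_124 did not. In this fit neither tested member was called at an adjusted p under 0.05 in any comparison. The background was low as well: the share of the 137 miRNAs called was 0% for phosphorus at 30 days, 2.19% at 90 days, and 0% for time under -P, for time under +P and for the interaction. A looser rule, which asked for an unadjusted p below 0.05 and a difference of 1 or more on the log2 scale in either direction, took 3.65%, 8.03%, 8.03%, 26.3% and 5.11% of them, in the same order. In edgeR's fit this rule took 1 of the 2 tested members, novel_79, in 1 comparison. That was time under +P, where the background share was the highest of the 5. The study picked its miRNAs by the same rule with DESeq2. With DESeq2 on the 6 libraries of 90 days, the rule took 19.0% of 121 miRNAs for phosphorus. Among them were novel_79 (-1.56, unadjusted p = 0.0043) and novel_286 (-2.12, unadjusted p = 0.0130). On the 6 libraries of 30 days, without a filter, it took 4 miRNAs as higher and 7 as lower of 211. Among the latter was novel_124 (-6.56, unadjusted p = 0.0106).

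At 90 days novel_79 was lower in deficient than in supplied leaves. The pooled level in 90d +P was 2.52 times that in 90d -P (1.93 to 3.32 for counting error), and all 3 deficient libraries lay below all 3 supplied ones. Such an order held for 6.57% of the tested miRNAs. edgeR put the log2 fold change at -1.70 (SE 0.81, adjusted p = 0.482), so the difference did not pass the threshold. The other fits fell on both sides of this value. DESeq2 on the 12 libraries gave -1.65 with an adjusted p of 0.0387, and called 5.84% of the miRNAs. edgeR's newer quasi-likelihood method gave -1.69 with an adjusted p of 0.0464, and called 6.57%. With the replicate letter added as a block, the newer method gave an adjusted p of 0.0552. DESeq2 on the 6 libraries of this time point gave -1.56 (adjusted p = 0.0503). Other alternatives gave a larger adjusted p than edgeR's 0.482, several with a smaller fold. These were library totals alone (-1.31, adjusted p = 0.516), no filter (-1.27, 0.794), the block in the older method (-1.67, 0.652), and limma with a pseudocount of 1 (-1.27, 0.671) or 10 (-1.0, 0.504). The call of novel_79 thus turned on the tool, while the value was negative in each of them. The exact two-sided permutation test of the mean TPM gave p = 0.1, the smallest that 3 against 3 libraries can give, and 0.30 after adjustment over the 12 member comparisons.

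Across all tested miRNAs the median log2 fold change at 90 days was -0.44, and -0.02 when libraries were scaled by their totals alone. The 3 libraries of 90d +P had normalization factors from 0.688 to 0.835, below the 0.893 to 1.10 of 90d -P. Relative to that median, novel_79 stood at -1.25 in edgeR's fit and at -1.28 with library totals alone, and it was not called under either scaling. Scaling shifts all miRNAs of a comparison nearly alike, so these relative values had to be close.

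novel_286 too was lower in deficient leaves at 90 days, but in TPM the margin left little between the groups. The highest deficient library had 9.78 TPM and the lowest supplied one 9.92 TPM, from 10 and 9 counts. The pooled ratio of 90d +P to 90d -P was 3.94 (2.48 to 6.50 for counting error). In edgeR its log2 fold change came to -2.28 (SE 1.30, adjusted p = 0.594), or -1.83 relative to the median. DESeq2 on the 6 libraries of 90 days gave -2.12 (adjusted p = 0.109, unadjusted p = 0.0130). That tool's unadjusted rule took 19.0% of the 121 miRNAs it tested. Leaving out 90d +P A, the library with 53 of the 83 supplied counts, brought the log2 fold change from -2.28 to -1.39. The permutation test of the mean TPM again gave the smallest exact p of 0.1 (0.30 adjusted over 12).

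The 30-day phosphorus comparison gave no call for either tested member. For novel_79 the pooled level in 30d +P was 2.42 times that in 30d -P (1.29 to 4.81 for counting error). On the log2 scale the difference was -1.01 (SE 0.83, adjusted edgeR p = 0.986), with an exact permutation p of 0.2 (0.48 adjusted over 12). With the libraries paired by letter the exact permutation p was 0.25, the smallest that 3 pairs can give. Most of the supplied counts, 30 of 41, came from library C, the deepest of 30d +P. Its level of 20.5 TPM was near the 18.4 TPM of library B. Without 30d +P C the log2 fold change was -0.44. Without 90d -P C, which enters through the shared model, it was -0.62. For novel_286 the difference was 0.70 (SE 1.26, adjusted edgeR p = 0.986), with an exact permutation p of 0.8, or 0.75 when paired by letter. That value depended on single libraries. It became 5.26 (adjusted p = 0.415) without 30d +P A and fell to -0.41 without 30d -P A, -0.21 without 30d +P B and -0.20 without 30d +P C. With the replicate letter as a block it was 1.55, and 2.27 in a blocked fit of the 30-day libraries alone, neither of them called.

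**Figure D2:**
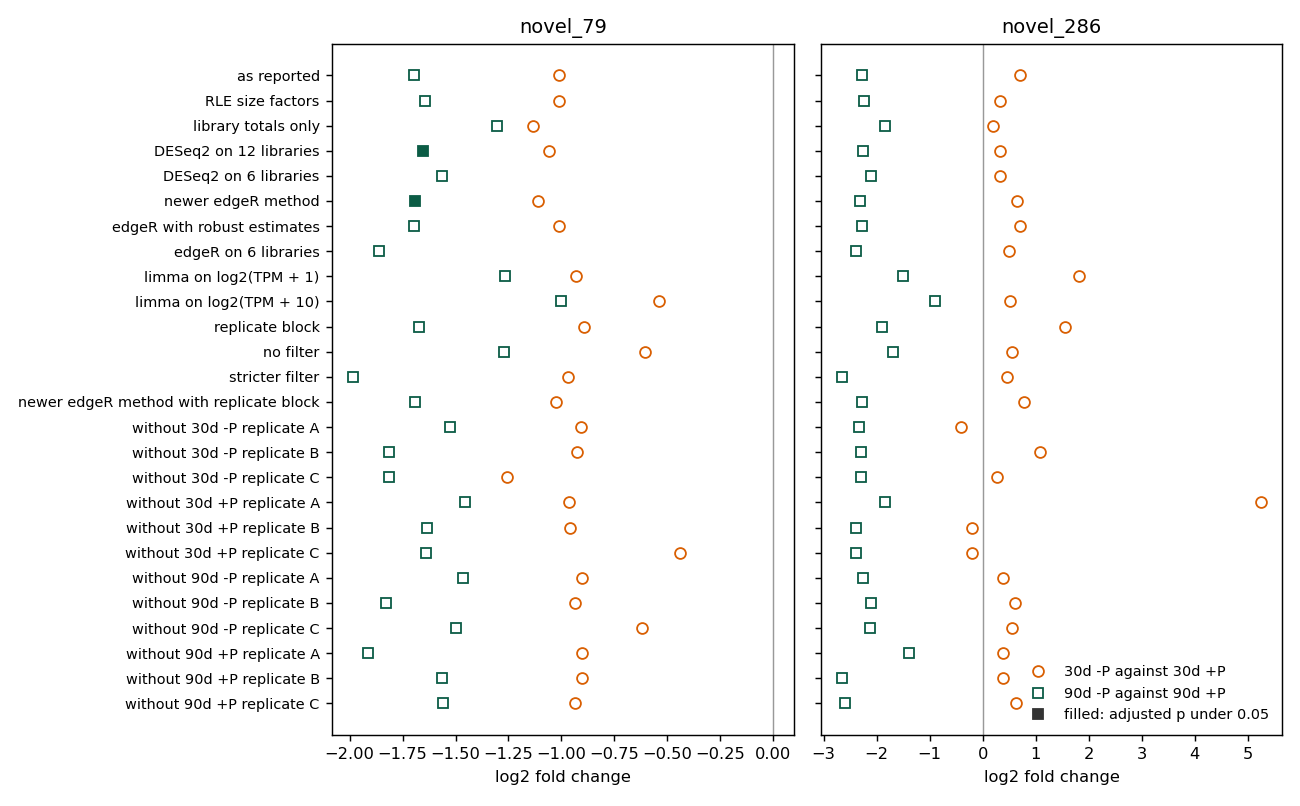
Log2 fold changes (-P against +P) of novel_79 and novel_286 at 30 days (circles) and 90 days (squares) under each processing alternative and with each library left out. Filled symbols have an adjusted p under 0.05, and these are 2 values of novel_79 at 90 days. Values of novel_79 stay below 0 throughout, whereas novel_286 at 30 days runs from -0.41 to 5.26.

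For novel_124 at 30 days a count of 0 in all deficient libraries stood against 41 counts in the supplied ones. Set against a limit of 3 counts over the whole group (1.5 TPM), the pooled 30d -P level was lower by at least 11.3-fold. That figure leaves out the counting error of the 41 supplied counts, which would lower it. This bound describes the pooled libraries, and B alone supplied 38 of the 41 counts. Fitted without a filter on all 220 miRNAs, edgeR gave p-values of 0.0182 (unadjusted p) and 0.628 (adjusted p). The unadjusted rule took 5.45% of the miRNAs in that fit. Without 30d +P B these were 0.239 (unadjusted p) and 0.967 (adjusted p). The exact permutation test of the mean TPM gave p = 0.4 (0.686 adjusted over 12), and p = 0.5 with libraries paired by letter. A blocked edgeR fit of the 30-day libraries alone, without a filter, gave 0.0119 (unadjusted p) and 0.646 (adjusted p). At 90 days the 8 counts of 90d +P against 1 count of 90d -P gave a pooled ratio of 9.12 (1.22 to 405 for counting error), with an adjusted p of 0.795 in the fit without a filter. All 8 counts came from library C, and without it the fitted log2 fold change turned from lower to higher in 90d -P (1.63). Neither difference was detectable beyond the spread between libraries.

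The time comparisons asked how the members moved between 30 and 90 days at each phosphate level. novel_79 was higher at 90 days under both. Under -P the pooled level at 90 days was 3.06 times that at 30 days (1.72 to 5.84 for counting error), and under +P it was 3.19 times (2.26 to 4.59). All 3 libraries of 90 days lay above all 3 of 30 days in each case, an order that 13.9% of the tested miRNAs showed under -P and 9.49% under +P. In edgeR's fit the log2 fold change was 1.75 (SE 0.84, adjusted p = 0.481) under -P and 2.44 (SE 0.83, adjusted p = 0.134) under +P. Neither passed the threshold in that fit. Under +P, DESeq2 on the 12 libraries gave 2.22 with an adjusted p of 0.00416 and called 22.6% of the miRNAs. The newer edgeR method gave 2.38 with an adjusted p of 0.0309 and called 13.9%. Both time comparisons gave an exact permutation p of 0.1 on the mean TPM, the smallest possible (0.30 adjusted over 12). The phosphorus and time comparisons share libraries, so their results for novel_79 are not separate pieces of evidence.

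The change of novel_286 with time did not pass the threshold at either phosphate level. Under -P its log2 fold change from 30 to 90 days was -1.21 (SE 1.27, adjusted p = 0.693), and under +P it was 1.76 (SE 1.27, adjusted p = 0.365). The value under +P was 0.49 with library totals alone, and ran from 0.21 without 90d +P A to 5.50 (adjusted p = 0.0977) without 30d +P A. The mean TPM gave exact permutation p-values of 0.4 and 0.6. For novel_124 under +P, the pooled level at 30 days was 7.02 times that at 90 days (3.25 to 17.3 for counting error). Its fitted log2 fold change of -2.88 (adjusted p = 0.366, fit without a filter) became 1.77 without 30d +P B. Under -P both groups were at or under the limit of 3 counts, and no fold is given.

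Whether the phosphorus effect itself differed between 30 and 90 days was tested as an interaction. It was -0.68 (SE 1.17, adjusted p = 0.880) for novel_79 and -2.97 (SE 1.80, adjusted p = 0.661) for novel_286 on the log2 scale. Without 30d +P A the latter was -7.10 (adjusted p = 0.173). No difference between the time points was thus shown for either. novel_79 had negative phosphorus values at both times, and those of novel_286 were of opposite sign.

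**Figure D3:**
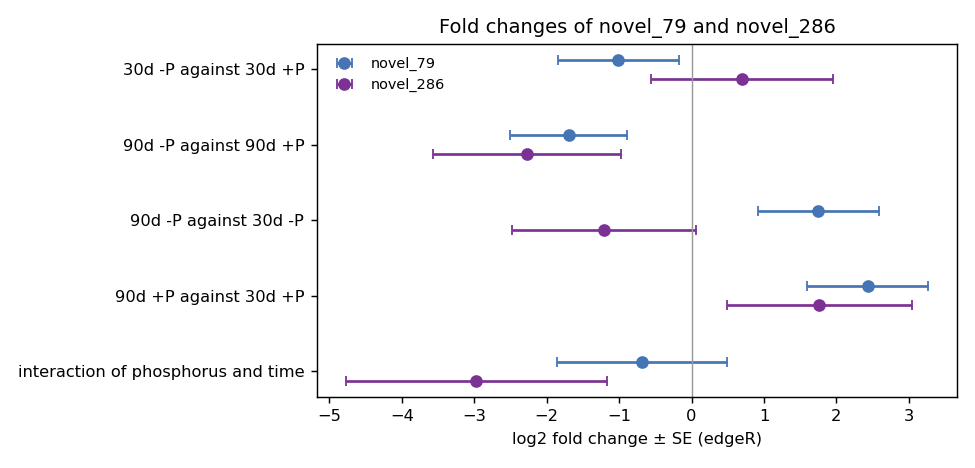
Log2 fold changes with their standard errors (horizontal bars) of novel_79 and novel_286 in the 4 comparisons and the interaction, from edgeR's fit of 12 libraries. The standard errors were derived from the F statistic. The standard errors of novel_286, from 1.26 to 1.80, are wider than those of novel_79 (0.81 to 1.17), and no adjusted p was under 0.05.

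The wider errors of novel_286 went with a higher spread between libraries. Its dispersion in edgeR was 0.958, a coefficient of biological variation of 97.9%, which was the 34th highest of 137. That of novel_79 was 0.440 (66.3%), at place 112, and the median was 0.677. By this estimate novel_79 was therefore among the steadier of the tested miRNAs despite its low counts.

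**Figure D4:**
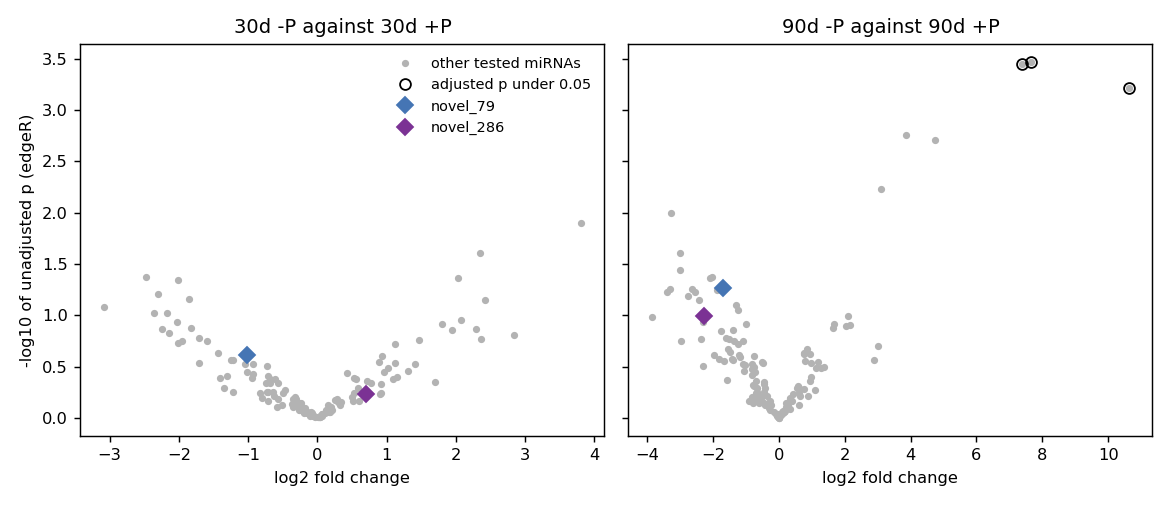
Log2 fold change against -log10 of the unadjusted p (edgeR) of the 137 tested miRNAs for -P against +P at 30 days (left) and 90 days (right). Diamonds mark novel_79 (-1.01 and -1.70) and novel_286 (0.70 and -2.28), and open circles the 3 miRNAs with an adjusted p under 0.05, which are higher in 90d -P and do not include them.

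The members did not follow each other across the 12 libraries. Pearson's r of log2(TPM + 1) was -0.09 between novel_79 and novel_286, 0.23 between novel_79 and novel_124, and -0.67 between novel_286 and novel_124. These are descriptions over libraries that differ in depth, and the last rests on few counts. The tested miRNAs most like novel_79 were novel_245 (r 0.76, Spearman's rho 0.76), novel_250 (r 0.70, rho 0.76) and novel_279 (r 0.66, rho 0.57). Mean levels of novel_245 were 24.6 TPM in 30d -P, 98.4 in 30d +P, 69.2 in 90d -P and 241 in 90d +P, so like novel_79 it was highest in the supplied leaves of 90 days. Choosing miRNAs by r over these same libraries favours such a shared pattern. Closest to novel_286 were novel_241 (r 0.84, rho 0.85), novel_26 (r 0.71, rho 0.69) and novel_194 (r 0.70, rho 0.76). Closest to novel_124 were aqc-miR166c (r 0.62, rho 0.72), novel_87 (r 0.60, rho 0.29) and novel_102 (r 0.58, rho 0.37). For novel_124, 8 of the 12 points are libraries with no count.

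A list of 11 miRNA families known from other plants to respond to phosphate or other nutrients gave a point of reference, and none of the 3 members belongs to it by name. Of these families 6 were in the table, with 9 rows, of which 5 were tested. At 90 days 1 of the 5 was called higher in -P and none lower, and no member of the list was called in the other comparisons. Its median log2 fold change for phosphorus was 1.10 at 30 days and 0.16 at 90 days, beside -0.15 and -0.44 over all tested miRNAs. The one called was aqc-miR399, the phosphate starvation miRNA named above, which the study had already reported as higher in 90d -P in these libraries. Its counts were 5, 15 and 3 in 30d -P, 2, 3 and 10 in 30d +P, 33, 27 and 36 in 90d -P, and 0, 0 and 0 in 90d +P. In 90d -P, though not in 90d +P, its counts were of the same order as those of novel_79. The share of tested miRNAs with all 3 libraries of 90d -P above those of 90d +P was not counted. aqc-miR399 differed between the 90-day groups without overlap and in the opposite direction to novel_79. Its log2 fold change of 7.65 (edgeR, adjusted p = 0.0243) ran from 7.43 to 7.66 when single 90-day libraries were left out, and DESeq2 on 12 libraries gave an adjusted p of 4.3e-05. The fold depends on the prior count, since 90d +P had no counts. With fewer libraries the adjusted p was 0.0671 without 90d -P A, 0.0654 without 90d -P C, and 0.144, 0.0881 and 0.0928 without 90d +P A, B and C, and 0.0238 without 90d -P B. The replicate block gave 7.84 with an adjusted p of 0.0568.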

How the data were processed

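Small RNA libraries were made from total RNA of leaves with an adaptor ligation kit. The authors deposited raw counts per miRNA together with TPM values and group means of these (the authors' means were not used). The deposited TPM equalled the count divided by the library's table total, on 1 common scale. The submitters' notes name Bowtie and DESeq2 without versions. The study predicted targets with psRobot. The members and lists were chosen with earlier results of these data known, as were the comparisons.

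Counts were fitted with edgeR 4.0.16 (R 4.3.3) using TMM factors (0.688 to 1.85), filterByExpr at a minimum count of 10, the older quasi-likelihood method and 1 model of 4 groups. The threshold was an adjusted p of 0.05, and the 137 tested miRNAs held 99.98% of counts. Standard errors of edgeR's fits were derived as the absolute log2 fold change divided by the square root of the F statistic, and are approximate. The fit was tested on simulated data. At the dispersion of these data it missed most of the changes put in, so a member not called may still have changed. Alternatives were RLE factors, library totals, DESeq2 1.42.0, limma 3.58.1 on TPM with a pseudocount of 1 or 10 on the log2 scale, other filters, a replicate block and leaving out each library. Exact permutation tests used scipy 1.17.1. Beside the members, the 3 tested miRNAs with the highest Pearson r to each, and miR399, are named.

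The letters A, B and C recur in every group. Deviations from the group means correlated at r = 0.46, 0.24 and 0.21 between same-lettered libraries of 30d -P and 30d +P, so the letters were taken to pair these, a reading that comes from the data. Elsewhere at least 1 pair was at or below 0.1.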

Additional observations from a re-analysis of the deposited data

How the results depend on the processing

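novel_79 at 90 days for phosphorus passed the threshold with DESeq2 on 12 libraries (-1.65) and the newer edgeR method (-1.69), and for time under +P with these (2.22 and 2.38) and with the newer method plus replicate block (2.46). Leaving out single libraries moved novel_286 at 30 days between -0.41 and 5.26, novel_124 at 90 days between -4.76 and 1.63, and novel_124 over time under +P between -7.41 and 1.77. Differences of mean TPM then ran from -6.06 to 19.2 for novel_286 at 30 days, from -3.42 to 23.5 for novel_286 over time under +P, from -4.15 to 0.253 for novel_124 at 90 days and from -48.0 to 1.92 for novel_124 over time under +P. These turns follow from the counts of the library that was left out. The replicate block gave novel_79 -0.89 at 30 days (adjusted p = 0.988) and -1.67 at 90 days (adjusted p = 0.652), and changed no call of the members in edgeR's older method. The miRNAs called at 90 days numbered between 0 and 9 over the alternatives, and those called over time under +P between 0 and 31. novel_79 was below the filter when the 30-day libraries were fitted alone, and novel_286 when the -P libraries were. In single 30-day libraries novel_79 had 3 to 30 counts, novel_286 had 0 to 29 and novel_124 had 0 to 38, so counting error is large there.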
